A study of Mus musculus with 8 samples.

Results

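Entry into and passage through mitosis depend on a set of genes that most dividing cells express together, and 47 of them were followed here in mouse malignant peripheral nerve sheath tumor (MPNST) cells given a MET kinase inhibitor. The 47 genes were chosen by their known function, with earlier results of these data known, and were found by symbol among the 50600 genes of the count table. All 47 passed the filter on low counts (10 or more in 2 or more of the 8 libraries), as did 14497 genes in all. They comprised 8 entry kinases and cyclins with their activating phosphatases, 9 genes of the spindle checkpoint, the anaphase-promoting complex (APC/C) and separase, 4 genes of the chromosomal passenger complex, 11 kinesins and other spindle or cytokinesis genes, 7 centromere and kinetochore genes, 6 genes of chromosome structure and 2 transcription factors.

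As background, cyclin-dependent kinase 1 bound to cyclin A or B starts mitosis, Aurora and Polo-like kinases build the spindle, and the APC/C ends mitosis by marking cyclin B and securin for destruction. Transcription of these genes peaks late in the cell cycle, when the MuvB complex works with B-MYB and FOXM1, and is held down in resting cells by the DREAM complex, which contains MuvB with p130 or p107 and E2F4. p53 raises p21, an inhibitor of cyclin-dependent kinases, and p21 favours assembly of DREAM. Many promoters of these genes hold a cell cycle genes homology region (CHR) and CCAAT boxes, which are bound by MuvB and by NF-Y.

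The NF1-MET line came from an MPNST of a mouse with the genotype *Nf1* fl/ko, lox-stop-lox MET tg/+ and a transgene for an inducible Cre expressed in Schwann lineage cells. It is *Met*-amplified and has lost *Cdkn2a*, and it is labelled wild type at *Trp53*. NF1-MET;sgP53, called the sgP53 line below, was made from it by CRISPR-Cas9 with a guide against *Trp53* and is labelled *Trp53* KO, and it carries the *Nf1*, MET, Cre and *Cdkn2a* alterations of its parent. Cells of both lines, grown in 10% serum, received DMSO as vehicle or 100 nM capmatinib, an inhibitor of the MET receptor kinase, for 24 h. Each of the 4 groups had 2 libraries from duplicate wells labelled as biological replicates, so p-values measure the spread between these libraries. Each genotype was 1 line, and differences between the lines other than *Trp53* cannot be told apart from its loss. The column names of the NF1-MET libraries carry the letters EV, so that these cells may be an empty-vector derivative, which the sources used here do not state.

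The libraries held 30.1 M to 42.8 M counts. *Gm42418*, a transcript that overlaps ribosomal RNA sequence, took 1.11% to 13.1% of the counts of a library, and scaling factors (TMM) lay between 0.898 and 1.10. *Trp53* stood at 182 and 193 CPM (counts scaled to library size) in NF1-MET with vehicle, at 126 and 128 CPM with capmatinib, at 97.5 and 100 CPM in the sgP53 line with vehicle and at 68.0 and 68.8 CPM with capmatinib, so every library of the sgP53 line was below every NF1-MET library. *Cdkn1a*, which encodes p21, stood at 92.9 and 87.2, 54.4 and 55.0, 29.5 and 27.1, and 13.4 and 14.8 CPM in the same order of groups, with no overlap between the lines. Of 9 Schwann cell markers, 3 reached 1 CPM in any library, namely *Egr2*, *Gap43* and *Pmp22*, and *Sox10*, which defines the lineage, did not exceed 0.176 CPM. The summed level of that list was 58.0 to 60.4 CPM with vehicle and 179.5 to 184 CPM with capmatinib in NF1-MET, and 67.9 to 71.2 CPM and 184 to 191 CPM in the sgP53 line. The 6 markers of the list that passed the count filter moved both ways. With capmatinib *Egr2* (2.18 in NF1-MET and 1.83 in the sgP53 line, log2 fold changes), *Pmp22* (2.14 and 2.03) and *Mbp* (1.36 and 1.71) were called higher, *Gap43* (-2.72 and -2.52) was called lower, *S100b* was called lower in the sgP53 line (-1.95) and not in NF1-MET (-0.38), and *Erbb3* was not called in either (-0.74 and -0.24). The response of *Egr2* differed between the lines, with an interaction of -0.36 (adjusted p = 0.00135, edgeR). The other tested markers of the list, *S100b* among them, had no called interaction, though values over the list ran from -1.58 to 0.48. With vehicle, *Egr2*, *Gap43* and *Pmp22* were called higher in the sgP53 line, by 0.21, 0.21 and 0.26. With capmatinib, *Pmp22* was called higher there, by 0.15, and *Egr2* lower, by -0.13. The other tested markers were not called, though values over the list ran from -1.82 to 0.41. Markers of other cells were near 0, with summed levels of at most 1.93 CPM for 5 immune markers, 0.358 CPM for 4 endothelial markers and 0.727 CPM for 4 epithelial markers, and *Adgre1* and *Cd3e* had no counts. Of these, *Cd68* and *Krt8* passed the filter, and both were called lower with capmatinib, *Cd68* by -0.90 in NF1-MET and -0.64 in the sgP53 line and *Krt8* by -4.80 and -5.57. *Krt8* was also called lower in the sgP53 line with vehicle, by -1.71. The part of these markers in the results below was not tested.

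Capmatinib lowered every mitosis gene in both lines. In NF1-MET, 47 of 47 genes were called lower (edgeR's quasi-likelihood test, adjusted p under 0.05 over all genes), where 34.7% of 14496 genes were, with a median log2 fold change of -0.72. In the sgP53 line, 47 of 47 were also called lower, where 33.4% of 14497 genes were, with a median of -0.73. The median gene kept 60.8% of its vehicle level in NF1-MET and 60.4% in the sgP53 line. For each of the 47 genes, and in both lines, both capmatinib libraries were below both vehicle libraries, as was so for 40.4% of all genes in NF1-MET and 40.6% in the sgP53 line.

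These counts stand against a broad response. Capmatinib changed 70.2% of all genes in NF1-MET, 35.5% being higher, and 67.6% in the sgP53 line, with 34.2% higher. The median over all genes was 0.0020 in NF1-MET and 0.0049 in the sgP53 line. When libraries were scaled to their totals without TMM factors, the 5140 higher and 5029 lower genes of NF1-MET became 3508 and 6381, and the 4963 and 4841 genes of the sgP53 line became 3260 and 4933, while 47 of 47 mitosis genes stayed lower in each line. Of all genes, 10.9% had a log2 fold change at or below the median mitosis gene in NF1-MET and 10.7% in the sgP53 line. The mitosis genes were uniform in direction and moderate in size, as the plot of the distribution of fold changes shows.

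**Figure D1:**
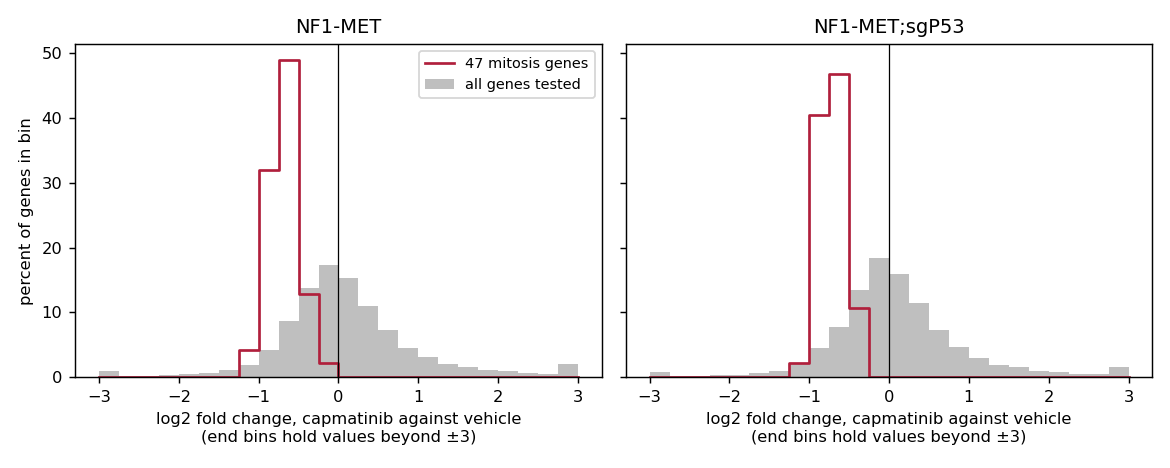
Percent of genes (y axis) in bins of log2 fold change with capmatinib against vehicle (x axis, bins of 0.25) for all genes tested (grey bars) and the 47 mitosis genes (red line), in NF1-MET (left) and NF1-MET;sgP53 (right). All mitosis genes lie below 0, with medians of -0.72 and -0.73, while all genes are centred near 0.

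The size of the fall was alike among most of the genes. The interquartile range ran from -0.84 to -0.62 in NF1-MET and from -0.85 to -0.57 in the sgP53 line, and 43 and 44 of the 47 genes kept 50% to 75% of their vehicle level. A fall of at least 2-fold was seen for 2 genes in NF1-MET, *Cdc25b* and *Ube2c*, and for 1 in the sgP53 line, *Cdc25b*, where 5.35% and 5.02% of all genes were called at least 2-fold lower. Summed over the 47 genes, the level was 7744 and 7787 CPM with vehicle and 4758 and 4809 CPM with capmatinib in NF1-MET. In the sgP53 line the sum was 7939 and 8037 CPM with vehicle and 4948 and 4987 CPM with capmatinib. In bulk RNA, fewer cells in or near mitosis and less of these RNAs per cell cannot be told apart.

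**Figure D2:**
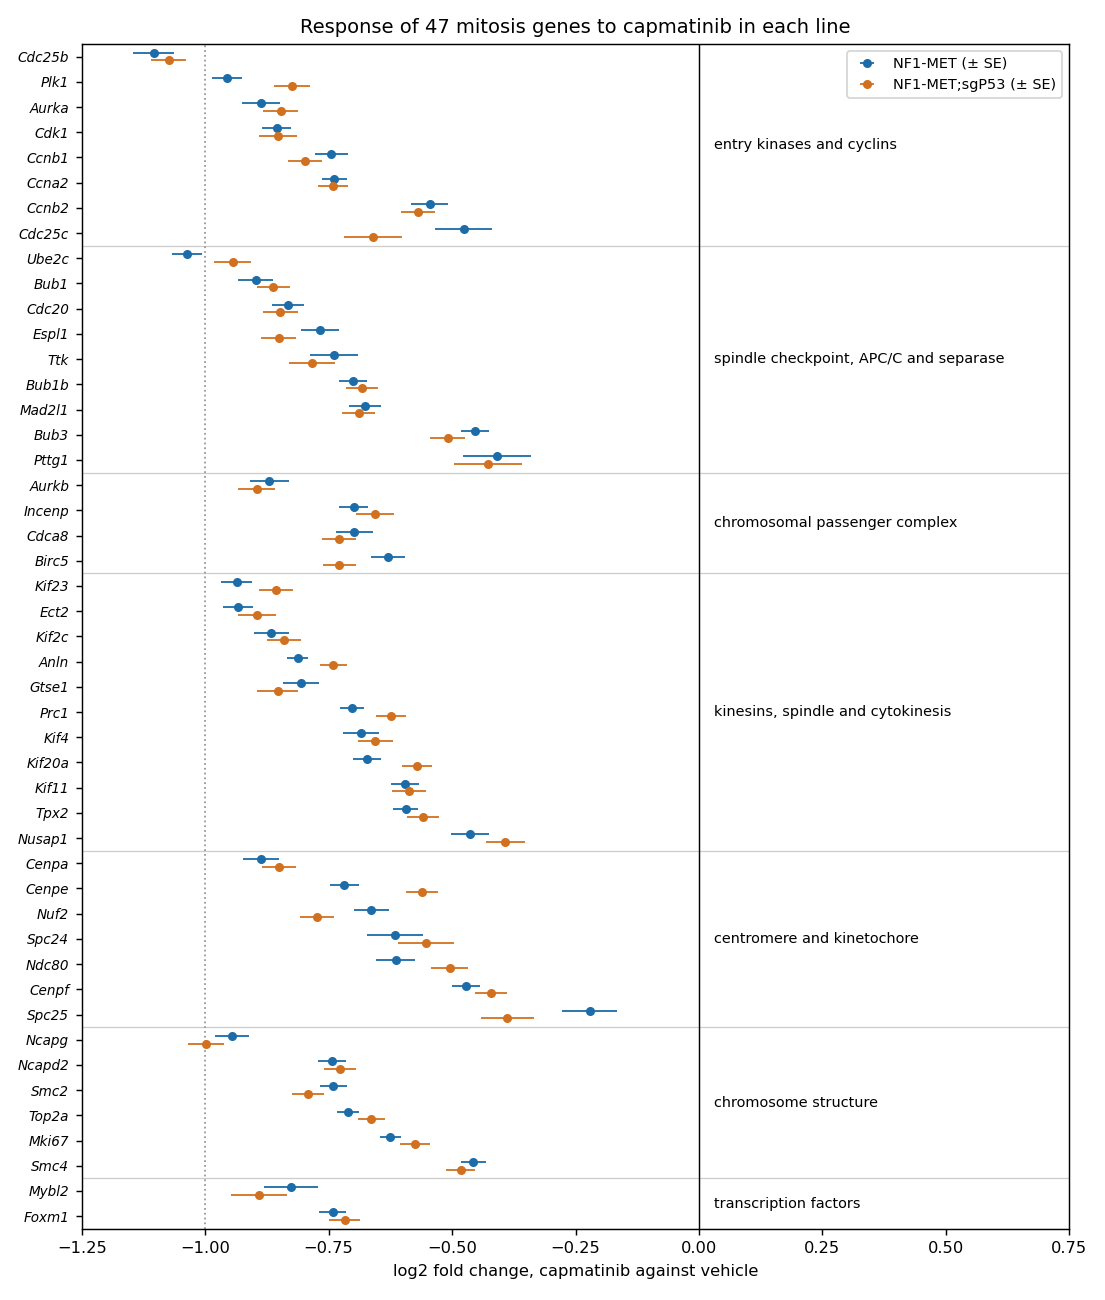
Log2 fold change with capmatinib against vehicle (x axis, points, with the standard error as bars) for each of the 47 mitosis genes (y axis), grouped by role, in NF1-MET (blue) and NF1-MET;sgP53 (orange). The dotted line marks a 2-fold fall. *Cdc25b* is at -1.10 and -1.07 and *Spc25* at -0.22 and -0.39, the ends of the range in both lines.

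All 8 entry kinases, cyclins and phosphatases fell, with medians of -0.80 in NF1-MET and -0.81 in the sgP53 line. *Cdc25b*, a phosphatase that removes the inhibitory phosphates from cyclin-dependent kinases, had the largest fall of the 47 genes in both lines. It stood at 114 and 112 CPM with vehicle and 48.5 and 56.6 CPM with capmatinib in NF1-MET, and at 100.3 and 100.1 CPM against 46.0 and 49.1 CPM in the sgP53 line. The fall was 2.15-fold (log2 fold change -1.10 ± 0.04 SE, adjusted p = 2.44e-21, edgeR) and 2.11-fold (-1.07 ± 0.04, adjusted p = 4.82e-17, edgeR). *Plk1*, the Polo-like kinase of spindle assembly, went from 141 and 146 CPM to 74.4 and 75.4 CPM in NF1-MET and from 146 and 149 CPM to 81.3 and 85.3 CPM in the sgP53 line, changes of -0.96 and -0.82. *Cdk1*, the kinase that drives entry, went from 173 and 170 CPM to 96.1 and 95.8 CPM and from 182 and 173 CPM to 94.6 and 102 CPM, a change of -0.86 and -0.85. *Aurka*, the Aurora kinase of centrosomes, changed by -0.89 and -0.85. Of the cyclins, *Ccna2* changed by -0.74 in both lines, *Ccnb1* by -0.74 and -0.80, and *Ccnb2* by -0.55 and -0.57. *Cdc25c*, a second phosphatase of *Cdk1*, fell by 0.48 on the log2 scale in NF1-MET and by 0.66 in the sgP53 line.

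All 9 genes of the checkpoint, APC/C and separase fell, with medians of -0.74 and -0.78. The furthest was *Ube2c*, the ubiquitin-conjugating enzyme that works with the APC/C. Its level was 167 and 174 CPM with vehicle and 84.2 and 84.1 CPM with capmatinib in NF1-MET, and 172 and 162 CPM against 84.7 and 89.0 CPM in the sgP53 line. The fall was 2.05-fold (-1.04 ± 0.03 SE, adjusted p = 2.86e-24, edgeR) and 1.92-fold (-0.94 ± 0.04, adjusted p = 1.3e-15, edgeR). *Cdc20*, the APC/C activator restrained by the checkpoint, changed by -0.83 and -0.85. Among the checkpoint kinases and their partners, *Bub1* changed by -0.90 and -0.86, *Ttk* by -0.74 and -0.78, *Bub1b* by -0.70 and -0.68, and *Mad2l1* by -0.68 and -0.69. *Espl1*, which encodes separase, changed by -0.77 and -0.85. The smaller falls in this group were those of *Bub3*, a checkpoint adaptor, at -0.45 and -0.51, and of *Pttg1*, which encodes securin, at -0.41 and -0.43.

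The 4 genes of the chromosomal passenger complex, which corrects attachments of chromosomes to the spindle, all fell, with medians of -0.70 and -0.73. Its kinase *Aurkb* went from 72.7 and 75.8 CPM to 40.7 and 41.4 CPM in NF1-MET and from 76.4 and 76.0 CPM to 39.9 and 42.0 CPM in the sgP53 line. These were falls of 1.83-fold and 1.86-fold (-0.87 and -0.90). The scaffold *Incenp* changed by -0.70 and -0.66, *Birc5*, which encodes survivin, by -0.63 and -0.73, and *Cdca8*, which encodes borealin, by -0.70 and -0.73.

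All 11 kinesins and spindle or cytokinesis genes fell, with medians of -0.70 and -0.66. *Kif23*, a motor of the central spindle, went from 161 and 155 CPM to 81.7 and 85.1 CPM in NF1-MET, a fall of 1.91-fold, and from 151 and 152 CPM to 83.2 and 84.1 CPM in the sgP53 line, a fall of 1.81-fold. *Ect2*, the exchange factor that activates RhoA at the cleavage furrow, went from 165 and 169 CPM to 89.7 and 87.1 CPM and from 167 and 174 CPM to 88.7 and 94.6 CPM, falls of 1.91-fold and 1.86-fold. Both belong to the cytokinesis machinery, as does *Anln*, a scaffold of the contractile ring, which changed by -0.81 and -0.74. *Kif2c*, a microtubule depolymerase, changed by -0.87 and -0.84, and *Kif11*, the motor that separates the spindle poles, by -0.60 and -0.59. *Nusap1*, a microtubule bundling protein, had the smallest fall of this group in both lines at -0.46 and -0.39. *Prc1*, *Kif4*, *Kif20a*, *Tpx2* and *Gtse1* lay between -0.85 and -0.56 in both lines. *Kif20a* and *Kif4* share 29.3% and 15.1% of their exon bases with *Cdc23* and *Pdzd11* on the other strand, and the strand setting of the counts is not given in the sources used here, so reads of these pairs may be mixed. The same holds for *Ncapg*, *Ccna2* and *Prc1*, which share 13.4%, 12.5% and 11.1% of their exon bases with *Lcorl*, *Exosc9* and *Rccd1*.

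The 7 centromere and kinetochore genes all fell, with the smallest medians of the 7 roles in NF1-MET and in the sgP53 line, -0.62 and -0.55. The differences between roles were not tested. *Cenpa*, the histone variant that marks centromeres, went from 94.0 and 97.6 CPM to 50.8 and 53.7 CPM in NF1-MET, a fall of 1.85-fold, and from 97.0 and 97.9 CPM to 52.8 and 55.2 CPM in the sgP53 line, a fall of 1.80-fold. Of the 4 subunits of the NDC80 complex, which binds microtubules, *Nuf2* changed by -0.66 and -0.77, *Ndc80* by -0.61 and -0.50, *Spc24* by -0.62 and -0.55, and *Spc25* by -0.22 and -0.39. *Spc25* was the least affected of the 47 genes in both lines. Its level was 29.0 and 27.8 CPM with vehicle and 24.8 and 24.5 CPM with capmatinib in NF1-MET (adjusted p = 0.000719, edgeR), and 32.1 and 31.0 CPM against 24.0 and 24.3 CPM in the sgP53 line (adjusted p = 1.21e-06, edgeR). *Cenpf*, a large kinetochore protein, changed by -0.47 and -0.42.

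All 6 genes of chromosome structure fell, with medians of -0.73 and -0.70. *Ncapg*, a condensin I subunit, went from 97.9 and 99.2 CPM to 51.9 and 51.7 CPM in NF1-MET and from 101 and 105 CPM to 50.02 and 53.0 CPM in the sgP53 line, falls of 1.926-fold and 1.998-fold. Of the condensin ATPases, *Smc2* changed by -0.74 and -0.79 and *Smc4* by -0.46 and -0.48. *Top2a*, the topoisomerase that untangles sister chromatids, changed by -0.71 and -0.66, and *Mki67*, the Ki-67 proliferation marker that coats mitotic chromosomes, by -0.63 and -0.58. Both transcription factors fell. *Mybl2*, which encodes B-MYB, went from 36.3 and 36.6 CPM to 21.7 and 20.05 CPM in NF1-MET, a fall of 1.77-fold, and from 37.4 and 41.3 CPM to 21.6 and 20.9 CPM in the sgP53 line, a fall of 1.85-fold. *Foxm1* changed by -0.74 and -0.72.

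**Figure D3:**
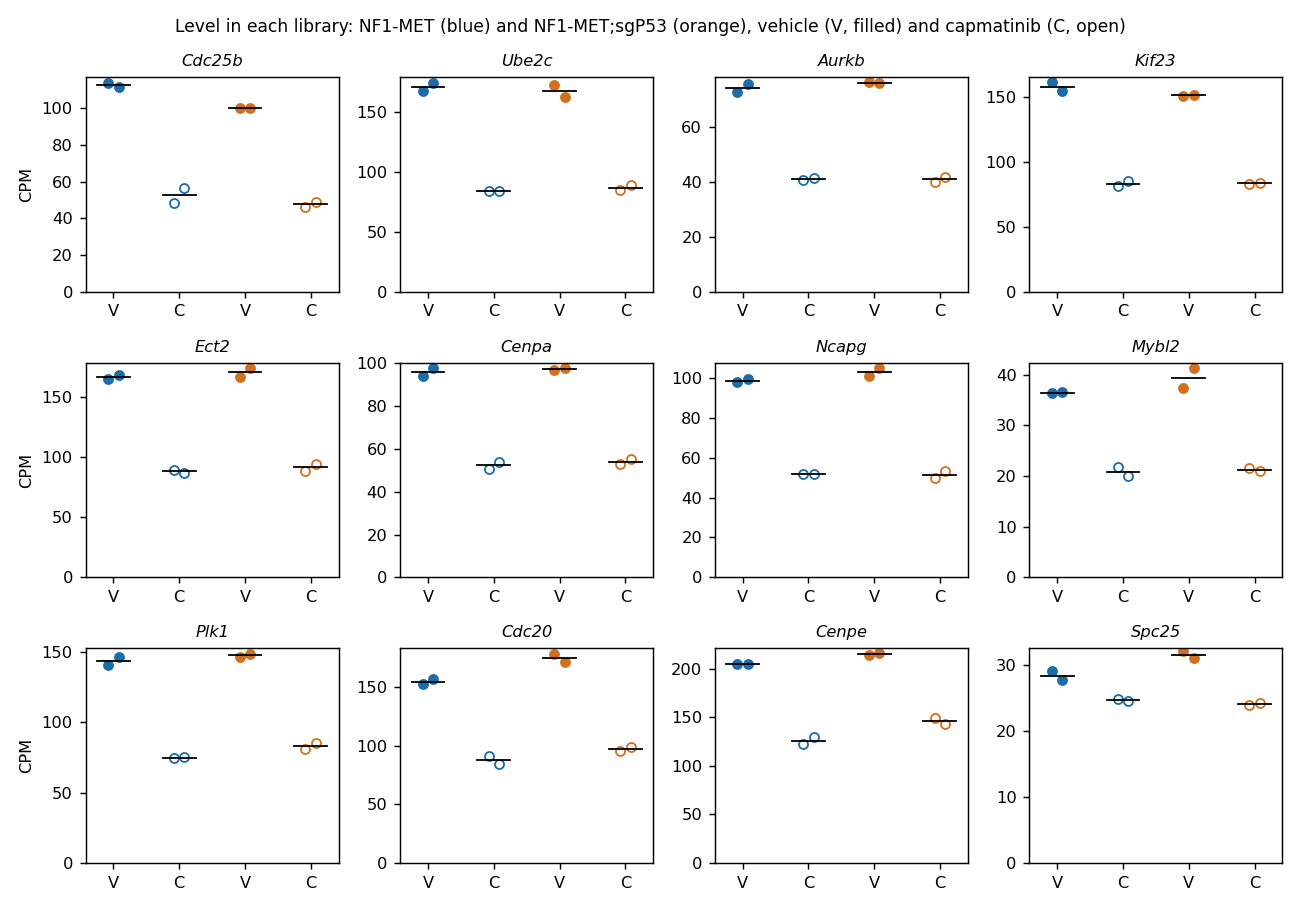
Level in CPM (y axis, from 0) of 12 mitosis genes in each library, as points, with the group mean as a line, for vehicle (V, filled) and capmatinib (C, open) in NF1-MET (blue) and NF1-MET;sgP53 (orange). In each panel the capmatinib libraries lie below the vehicle libraries of the same line.

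Levels also differed widely among the genes before treatment. Per kilobase of exon, the highest in NF1-MET with vehicle was *Cdc20* at 82.8 CPM per kb, followed by *Mki67* at 72.9 and *Top2a* at 72.8 CPM per kb, and the lowest was *Cdc25c* at 5.96 CPM per kb. The lowest count of any of the 47 genes in any library was 395, so none was limited by depth in the way a rare transcript is.

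Genes with related functions were read from lists chosen by function in the same way. Of 95 other mitosis genes, 85 were lower and 3 higher in NF1-MET (median -0.60), where 34.7% of all genes were lower and 35.5% higher. In the sgP53 line 84 were lower and 2 higher (median -0.64), where 33.4% and 34.2% of all genes were. The largest falls were those of *Ccnf*, which encodes cyclin F, at -1.07 and -1.05, of *Pbk*, a mitotic kinase, at -0.95 in NF1-MET, and of *Trip13*, an ATPase that disassembles the checkpoint complex, at -1.004 in the sgP53 line. *Anapc2* and *Cdc16*, core subunits of the APC/C, were higher, at 0.30 and 0.24 in NF1-MET and 0.26 and 0.25 in the sgP53 line. With library totals in place of TMM factors, 0 of the 95 genes were higher in either line.

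Of 13 genes listed with DREAM and MuvB, 10 were lower in each line, with medians of -0.50 and -0.60. Of all genes, 34.7% were lower in NF1-MET and 33.4% in the sgP53 line. The list also held *E2f7* and *E2f8*, atypical E2F repressors that are not subunits of DREAM and were both among the lower genes. *E2f8* was at -2.11 and -2.06. *Lin9*, a MuvB subunit, was at -0.84 in NF1-MET, and *Rbl1*, which encodes p107, was at -0.80 in the sgP53 line. *Rbl2*, which encodes p130, was higher, at 0.16 and 0.20, and *Lin52*, another MuvB subunit, was at 0.31 in the sgP53 line. With library totals, 0 of the 13 genes were higher in either line, and with DESeq2's Wald test 0 were higher in NF1-MET and 1 in the sgP53 line, so the call of *Rbl2* in NF1-MET was lost under both.

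All 30 DNA replication genes were lower in each line, where 34.7% and 33.4% of all genes were, with medians of -0.83 in NF1-MET and -0.95 in the sgP53 line. Of the 30, 4 and 13 were at least 2-fold lower, against 5.35% and 5.02% of all genes. *Mcm7*, a subunit of the replicative helicase, was at -1.22 and -1.29, *Pola1*, the catalytic subunit of polymerase alpha, at -1.06 in NF1-MET, and *Mcm10*, a factor that activates the helicase, at -1.27 in the sgP53 line.

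The mitosis genes responded to capmatinib almost alike in the 2 lines. In the test of the difference itself, the interaction of line and treatment, 1 of 47 genes passed the threshold, *Cenpe*, where 9.71% of 14497 genes did, 3.85% being higher and 5.86% lower. The median interaction over the 47 genes was 0.0006 on the log2 scale, where that over all genes was -0.026. With library totals these medians were 0.080 and 0.052. At an unadjusted p under 0.05 there were 6 of the 47, where 21.8% of all genes were. The 95% intervals of all 47 interactions lay within 0.5 of 0 and those of 45 within 0.25 of 0, with bounds from -0.36 to 0.23. These intervals, and those below, used the normal distribution and are slightly narrower than intervals of the F-test would be. The 2 responses rest on different libraries, and across the 47 genes, which are not independent replicates, they had a Pearson r of 0.916 and a Spearman rho of 0.918. They differed by less than 0.1 for 40 genes and by at most 0.18.

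*Cenpe*, the kinesin that carries chromosomes to the spindle equator, fell less in the sgP53 line. It stood at 206 and 205 CPM with vehicle and 122 and 130 CPM with capmatinib in NF1-MET, and at 214 and 217 CPM against 149 and 143 CPM in the sgP53 line. The change was -0.72 ± 0.03 (SE) and -0.56 ± 0.03, and the interaction 0.14 ± 0.04 (adjusted p = 0.0454, edgeR). The call was lost with library totals (adjusted p = 0.451), and without any 1 of 6 libraries, namely both vehicle libraries of each line and replicate 1 of each capmatinib group, with adjusted p from 0.0733 to 0.236, while the interaction was 0.22 with library totals and 0.10 to 0.15 without those libraries. The values furthest the other way did not pass. *Cdc25c* had an interaction of -0.20 with a 95% interval from -0.36 to -0.04 and an adjusted p of 0.139 in edgeR's test, and *Spc25* one of -0.18, from -0.33 to -0.04, with an adjusted p of 0.141 in edgeR's test.

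The replication genes gave another count. Of the 30, 11 had a lower interaction, that is a larger fall in the sgP53 line, with a median of -0.14, where 5.86% of all genes, 5 of the 95 other mitosis genes and 0 of the 47 were called lower. With DESeq2's Wald test, 7 of the 30 were called lower. With library totals, 0 of the 30 were called and their median was -0.056, while the median of all genes moved from -0.026 to 0.052. The plot of the responses in the 2 lines places the mitosis genes along the diagonal and most replication genes below it.

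**Figure D4:**
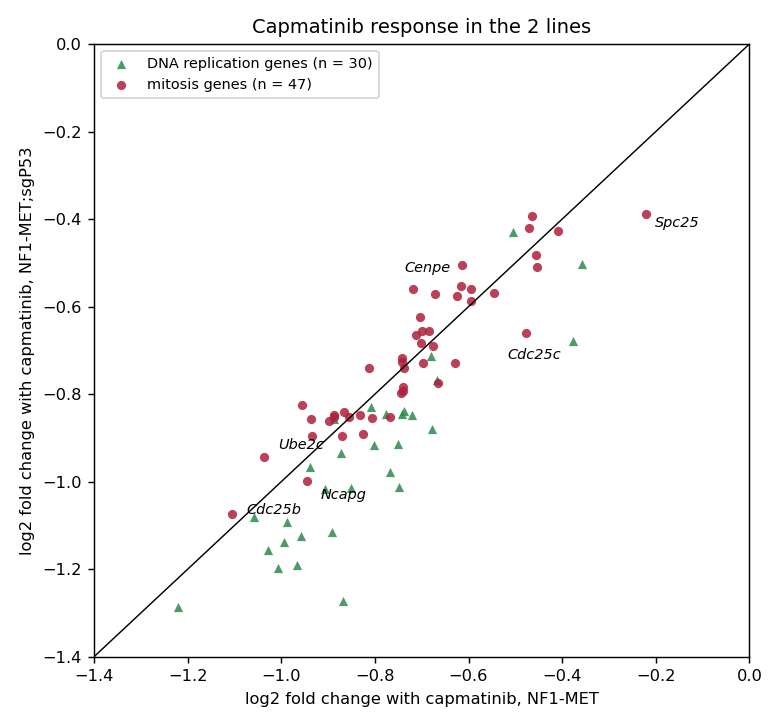
Log2 fold change with capmatinib in NF1-MET (x axis) against that in NF1-MET;sgP53 (y axis) for the 47 mitosis genes (red circles) and 30 DNA replication genes (green triangles), with the line of equal response in black. The mitosis genes lie within 0.18 of the line, and the replication genes have medians of -0.83 and -0.95.

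Between the lines, with treatment held fixed, the mitosis genes differed little. With vehicle, 11 of 47 (where 23.2% of 14484 genes were called) differed, 8 being higher and 3 lower in the sgP53 line, against 10.9% and 12.3% of all genes. The median was 0.04, where that of all genes was 0.0024, and the 47 values ran from -0.19 to 0.16. With library totals these medians were 0.097 and 0.060. Without vehicle replicate 2 of the sgP53 line the median of the 47 was 0.020. The higher genes were *Cdc20*, *Smc4*, *Cdc25c*, *Ccnb2*, *Nuf2*, *Ccnb1*, *Bub1* and *Ccna2*, of which 4 are entry genes, and the lower were *Cdc25b*, *Gtse1* and *Anln*. The 36 genes that were not called lay between -0.08 and 0.13.

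*Cdc20* had the largest of these differences upward. It stood at 153 and 157 CPM in NF1-MET and 179 and 172 CPM in the sgP53 line, a 1.12-fold difference (0.16 ± 0.03 SE, adjusted p = 0.000332, edgeR). *Smc4* stood at 354 and 360 CPM against 396 and 410 CPM (0.16 ± 0.03, adjusted p = 0.00015, edgeR). *Cdc25b* was lower, with 114 and 112 CPM in NF1-MET and the 100.3 and 100.1 CPM given above in the sgP53 line (-0.19 ± 0.03, adjusted p = 0.000114, edgeR). For these 3 genes the libraries of the lines did not overlap, as was so for most of the 47. With vehicle, both sgP53 libraries were above both NF1-MET libraries for 28 of the 47 genes, where 34.5% of all genes were, and below both for 5, where 26% were. *Cdc25c*, at 29.6 and 29.1 CPM against 32.4 and 33.6 CPM, and *Ccnb2*, at 70.9 and 69.9 CPM against 77.3 and 79.5 CPM, differed by 0.15 and 0.14.

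With capmatinib in both lines, 7 of 47 genes differed (where 12.3% of 14481 genes were called), 6 being higher and 1 lower in the sgP53 line, against 5.94% and 6.34% of all genes. The median was again 0.04. *Cenpe* was the furthest, with the levels given above, at 0.21 ± 0.04 (SE, adjusted p = 0.000494, edgeR). *Plk1* followed at 0.15, *Cdc20* at 0.15, *Smc4* at 0.13, *Bub1* at 0.13 and *Kif20a* at 0.12. *Gtse1*, which encodes a microtubule-associated protein that binds p53, was lower at -0.15, with 46.5 and 45.5 CPM in NF1-MET and 39.3 and 43.3 CPM in the sgP53 line. It was also lower with vehicle, with 79.7 and 79.2 CPM against 74.9 and 74.3 CPM (-0.11). *Bub1*, *Cdc20*, *Smc4* and *Gtse1* were the 4 genes called under both treatments.

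Few of these calls held under every setting, while each lost call kept its sign. With library totals the calls with vehicle became 3 higher and 0 lower and those with capmatinib 1 higher and 0 lower. With DESeq2's Wald test the higher calls were 2 and 2. Calls over all genes fell too. With library totals the 1580 higher and 1775 lower with vehicle became 1280 and 743. The 860 and 918 with capmatinib became 537 and 129. By the Wald test the higher calls over all genes became 833 with vehicle and 436 with capmatinib. With library totals the differences themselves moved upward, as did the medians of all genes, to 0.060 with vehicle and 0.11 with capmatinib. *Plk1* with capmatinib was at 0.27 with library totals and *Gtse1* with capmatinib at -0.037. Calls were also lost when 1 library was left out, to a degree that depended on the library. Shares over all genes for those fits are not given here. *Cdc20* and *Smc4* with vehicle and *Cenpe* with capmatinib kept their calls under every alternative tried.

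**Figure D5:**
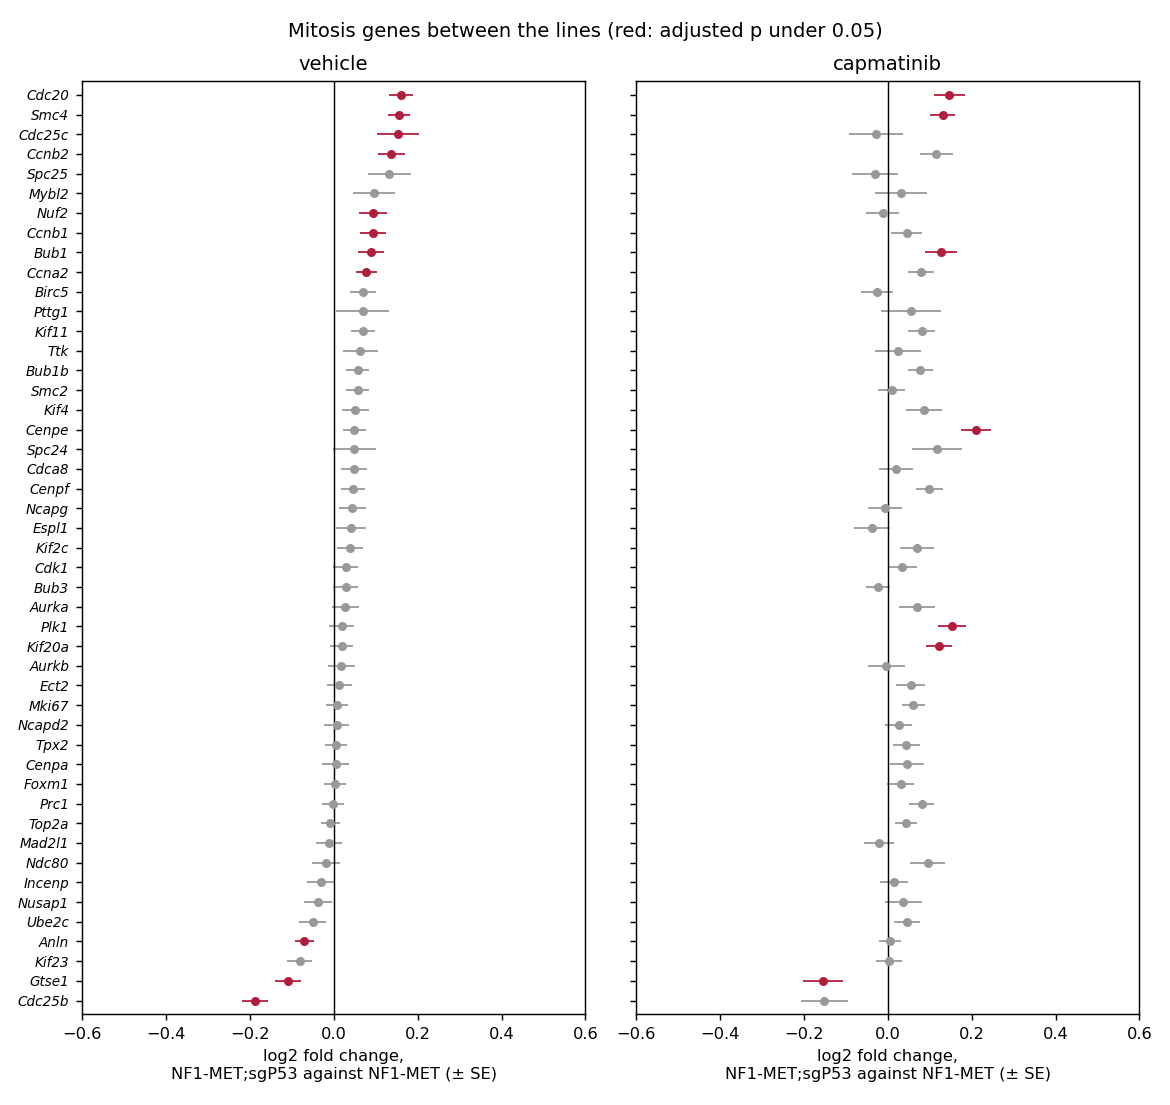
Log2 fold change of NF1-MET;sgP53 against NF1-MET (x axis, points, with the standard error as bars) for the 47 mitosis genes (y axis, ordered by the value with vehicle), with vehicle (left) and capmatinib (right). Red points have an adjusted p under 0.05, 11 genes on the left and 7 on the right, and grey points do not.

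The promoters of genes that moved together were read for the elements known from this gene class. RefSeq promoters (GRCm38.p6, from 250 bases before to 50 after the start, 300 bases) were matched for 38 of the 47 genes, and not for *Ccna2*, *Cdc25c*, *Aurkb*, *Incenp*, *Kif20a*, *Tpx2*, *Spc24*, *Smc4* and *Foxm1*. Both strands were searched. The CHR, TTTGAA, was found in 27 of 38 (71.1%, 95% Wilson interval 55.2% to 83.0%), against 18.1% of all 27025 promoters of the same length, 11.6% of the 10187 promoters of genes past the count filter, 17.4% of 23 promoters of replication genes and 43.8% of 80 promoters of the other mitosis genes. The variant TTTAAA was found in 26.3%, against 13.2% of all promoters. The CCAAT box was found in 29 of 38 (76.3%), against 37.9% of all promoters, 69.6% of those of replication genes and 62.5% of those of the other mitosis genes. Both a CHR and a CCAAT box were held by 24 of 38 (63.2%), against 7.12%, 13.0% and 31.2% of the same sets. The differences between these sets were not tested. An E2F site, either TTTCCCGC or its relative TTTGGCGC, was found in 2 of 38 (5.26%), against 1.63% of all promoters, 3.17% of those past the count filter, 13.8% of those of the other mitosis genes and 43.5% of those of replication genes. On the given strand alone the share was 2.63%, against 13.0% for replication genes. Of the 34 CHR matches, 27 were within 100 bases of the start. A match is a description of the letters and does not show binding.

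Promoters of 6 genes, chosen after their values were seen, are printed to show these elements, 5′ to 3′ on the strand of the gene, with capitals marking the CHR, its variant and the CCAAT box on either strand. *Cdk1* (chr10:69352863-69353162, minus strand), *Plk1* (chr7:122159185-122159484, plus strand) and *Ube2c* (chr2:164769679-164769978, plus strand) stand for the entry kinases and the APC/C. In *Ube2c*, CCAAT matches of both strands overlap. *Cdc25b* (chr2:131186698-131186997, plus strand) had the largest fall, *Cenpe* (chr3:135212313-135212612, plus strand) the one interaction, and *Spc25* (chr2:69206164-69206463, minus strand) the smallest fall.
*Cdk1*: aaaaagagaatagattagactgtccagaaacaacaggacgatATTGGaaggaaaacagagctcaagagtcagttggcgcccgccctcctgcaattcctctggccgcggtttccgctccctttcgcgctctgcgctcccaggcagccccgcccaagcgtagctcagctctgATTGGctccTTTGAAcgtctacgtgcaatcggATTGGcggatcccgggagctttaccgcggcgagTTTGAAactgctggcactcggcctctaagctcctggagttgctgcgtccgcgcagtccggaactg
*Plk1*: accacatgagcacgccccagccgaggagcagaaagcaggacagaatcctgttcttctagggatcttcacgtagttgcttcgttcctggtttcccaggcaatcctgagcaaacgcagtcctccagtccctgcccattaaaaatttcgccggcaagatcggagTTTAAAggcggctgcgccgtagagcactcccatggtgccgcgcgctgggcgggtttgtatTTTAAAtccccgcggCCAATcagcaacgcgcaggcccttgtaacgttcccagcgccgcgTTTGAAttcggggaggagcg
*Ube2c*: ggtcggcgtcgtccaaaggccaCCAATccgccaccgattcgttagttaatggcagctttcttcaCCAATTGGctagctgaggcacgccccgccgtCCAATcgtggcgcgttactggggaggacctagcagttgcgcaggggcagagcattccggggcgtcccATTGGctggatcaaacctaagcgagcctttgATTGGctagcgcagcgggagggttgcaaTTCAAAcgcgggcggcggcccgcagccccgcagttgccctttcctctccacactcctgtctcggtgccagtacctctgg
*Cdc25b*: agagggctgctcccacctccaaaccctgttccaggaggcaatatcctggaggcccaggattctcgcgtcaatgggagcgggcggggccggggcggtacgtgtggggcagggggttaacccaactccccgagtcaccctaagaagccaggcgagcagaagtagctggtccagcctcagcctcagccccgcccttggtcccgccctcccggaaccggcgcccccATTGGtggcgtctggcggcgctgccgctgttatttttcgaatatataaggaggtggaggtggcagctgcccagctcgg
*Cenpe*: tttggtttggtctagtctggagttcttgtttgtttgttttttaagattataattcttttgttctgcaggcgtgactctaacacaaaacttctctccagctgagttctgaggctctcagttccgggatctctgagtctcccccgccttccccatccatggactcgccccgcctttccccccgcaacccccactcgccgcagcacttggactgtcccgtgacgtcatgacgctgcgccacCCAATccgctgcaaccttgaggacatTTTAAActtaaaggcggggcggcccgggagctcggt
*Spc25*: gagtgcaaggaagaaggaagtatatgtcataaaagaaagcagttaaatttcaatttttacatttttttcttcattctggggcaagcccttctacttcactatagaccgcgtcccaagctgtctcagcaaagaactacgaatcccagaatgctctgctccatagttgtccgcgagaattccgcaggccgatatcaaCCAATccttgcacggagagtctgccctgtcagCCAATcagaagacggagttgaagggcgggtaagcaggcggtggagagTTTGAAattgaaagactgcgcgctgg

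The size of the fall was set beside the presence of these letters, with no test. *Cdc25b*, with the largest fall, held 1 CCAAT match and no CHR, while *Spc25*, with the smallest, held both. The 27 genes with a CHR had a median of -0.74 in NF1-MET and -0.74 in the sgP53 line, and the 11 without one had medians of -0.72 and -0.77. The 29 genes with a CCAAT box had medians of -0.74 and -0.79, and the 9 without one -0.66 and -0.73.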

How the data were processed

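Poly(A) RNA-seq libraries were made from 2 replicates of each of the 4 groups. The authors trimmed the reads, aligned them to mm10 with STAR and deposited raw counts per gene, not normalized. Tools named in the submitters' processing notes are bcl2fastq 1.9.0, Trim Galore 0.4.2, FastQC 0.11.7 and STAR 2.5.2b. The gene annotation and strand setting of the counts are not given in the sources used here, and positions, exon lengths and overlaps were taken from GENCODE M21.

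Genes with 10 or more counts in 2 or more of 8 libraries and above 0 in at least 2 libraries of a comparison were tested with edgeR 4.0.16 (R 4.3.3), with TMM factors within the comparison, the legacy quasi-likelihood F-test and Benjamini-Hochberg adjustment over all genes tested at 0.05. Capmatinib was compared with vehicle in each line, the lines under each treatment, and the interaction over all 8 libraries. Levels are CPM scaled with TMM over 8 libraries. Alternatives were DESeq2 (1.42.0) size factors and its Wald test, library totals, edgeR's bias-adjusted test, no filter and a stricter one, 1 model of all libraries, the replicate number as a block, removal of *Gm42418*, and each library left out (24 fits). In data simulated for the interaction over 14164 genes, 50.0% of 1.25-fold and 84.0% of 1.5-fold changes were recovered. Totals of 30.1 M to 42.8 M counts left at least 395 counts for each gene and library.

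The genes and lists were chosen with earlier results of these data known. Values are printed by role, with CPM per library for the largest fall in each role and for the largest called differences between lines or responses. In other lists the 2 largest called rises and falls are named. *Spc25* and *Cdk1* are shown per library by choice after their values were seen. A further marker of the Schwann cell list is not reported here.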

Additional observations from a re-analysis of the deposited data

Results flagged for a closer look

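The response to capmatinib differed between the lines for *Cenpe*, by a log2 interaction of 0.14 (adjusted p = 0.0454 in edgeR's quasi-likelihood test), each capmatinib library being below each vehicle library of its line. The call was lost with library totals (adjusted p = 0.451 in edgeR's test) and without any 1 of 6 of the 8 libraries. *Cdkn1a*, the p21 gene and not one of the 47, had an interaction of -0.28 (adjusted p = 0.0148 in the same test), with changes of -0.73 in NF1-MET and -1.001 in the sgP53 line.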

How the results depend on the processing

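All 47 falls with capmatinib in each line kept their call and direction under every alternative and with each library left out. The median fall moved only with library totals, to -0.91 in NF1-MET and -0.85 in the sgP53 line, while the median of all genes moved to -0.18 and -0.12. Between the lines with vehicle, library totals gave 3 higher and 0 lower of the 47 genes and a median of 0.097 (all genes 0.060), DESeq2's Wald test 2 higher, 1 model of all libraries 1 lower and a median of 0.059 (all genes 0.021), and leaving out a library 3 to 7 higher, 1 to 4 lower and a median of 0.020 to 0.036. With capmatinib, library totals gave 1 higher, 0 lower and a median of 0.16 (all genes 0.11), the Wald test 2 higher and 0 lower, no filter and 1 model 2 lower, and leaving out a library 3 to 9 higher and 0 to 2 lower. For the interaction, library totals gave 0 higher and a median of 0.080 (all genes 0.052), removal of *Gm42418* gave 2 higher, and leaving out a library 0 to 1 higher. The cause was not tested. Where a library was left out, the lone sample of its group was assumed to vary like the others. With library totals the replication genes between the lines with capmatinib had a median of 0.025 in place of -0.09, and the other mitosis genes of the interaction 0.038 in place of -0.04. The medians of all genes moved by a like amount, from -0.0010 to 0.11 and from -0.026 to 0.052, and both lists stayed below them. The interaction of *Trp53*, at 0.03 and not called, ranged from -0.011 to 0.073 with a library left out.

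Over all genes, calls between the lines with vehicle were 1580 higher and 1775 lower, 833 and 1100 by the Wald test, and 1280 and 743 with library totals. With capmatinib 860 and 918 became 436 and 434 by the Wald test and 537 and 129 with library totals. For the interaction 558 and 849 became 192 and 123 with library totals, 461 were lower by the Wald test, 509 were lower without replicate 2 of the sgP53 line with capmatinib, and 873 were higher without *Gm42418*. On the given strand alone, 52.6% of promoters held TTTGAA (10.1% of all promoters, 27.5% of other mitosis genes), 50% CCAAT (21.7% and 40.0%), 28.9% both (2.24% and 10.0%), and 0 TTTCCCGC.

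Whether same-numbered libraries shared any handling is not stated in the labels. Correlations of their deviations from the group means were -0.05 to 0.10 over 6 pairs of groups. With the replicate block, 10 genes were higher and 4 lower between the lines with vehicle, and 6 higher and 2 lower with capmatinib. The block changed no call with capmatinib in either line. Replicate libraries differed by more than sampling noise in every group, with median ratios of 1.54 to 1.86.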
